A study of Mus musculus with 16 samples.

Results

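Neat1 and Malat1, 2 long noncoding RNAs kept in the nucleus, and 4 proteins of the nuclear body that Neat1 builds (Sfpq, Nono, Pspc1 and Rbm14) were followed through the libraries of a mouse leukemia cell line. These 6 genes were taken out of 53801 in the count table by their symbols. Neat1 was picked because its response to the knockout turned with oxygen, so its levels are described and, apart from the oxygen effect averaged over genotypes, carry no test. The other 5 genes were listed for what they do, with earlier results of these data known, and were tested in every comparison.

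The cells were an MLL-AF9 acute myeloid leukemia (AML) line, driven by a fusion of the histone methyltransferase MLL to AF9, grown in RPMI with serum, IL-3 and SCF. They carried a guide RNA against MCT4 (gene Slc16a3), which carries lactate and protons out of the cell, or a non-targeting guide as control, and in both arms Cas9 was switched on with 4-OHT (4-hydroxytamoxifen). Each genotype was then kept at 20% or at 2% oxygen, giving 4 groups with 4 poly(A)-selected RNA libraries each: control at 20% oxygen, MCT4-KO at 20% oxygen, control at 2% oxygen and MCT4-KO at 2% oxygen. The labels do not say how many guides or clones stand behind the knockout, nor whether the numbered libraries of a group were grown apart, and the tests therefore weigh differences only against the spread of these libraries, part of which may be technical.

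Paraspeckles are small bodies in the nucleus, built around the long form of the noncoding RNA Neat1. Sfpq, Nono and Pspc1 form the DBHS family (Drosophila behaviour and human splicing), whose members pair with each other and coat Neat1, and Rbm14 joins the coated strands into a body. Neat1 is made as a short form, which is cleaved and polyadenylated, and as a long form, which runs past that site and ends without a poly(A) tail. Malat1 is transcribed from the next gene, is held in nuclear speckles, where splicing factors are stored, and also ends without a poly(A) tail. In both RNAs the end is cut by RNase P and is held by a triple helix in which U-rich stretches clasp an A-rich tract. Neat1 is known to be induced by low oxygen, through HIF-2alpha, in some tumour cells.

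Neat1 lies on the minus strand at chr19:5824708-5845478 (GRCm38, GENCODE vM21) and Malat1 at chr19:5795690-5802672, 22035 bp downstream. The ends of these RNAs are shown because poly(A) selection was applied to every library and the 2 forms of Neat1 differ exactly there. In the first pair the capitals mark the polyadenylation signal AATAAA, at the end of the short Neat1 transcript (chr19:5842307-5842366) and at the annotated end of Malat1 (chr19:5795690-5795749).
Neat1 short form: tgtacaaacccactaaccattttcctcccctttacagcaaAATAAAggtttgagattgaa
Malat1 annotated end: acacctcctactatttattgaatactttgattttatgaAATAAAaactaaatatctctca

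In the second pair the capitals mark the 3 stretches of at least 8 bases that both RNAs share in the same order, at the end of the long Neat1 transcript (chr19:5824708-5824807) and in Malat1 (chr19:5795982-5796081). They are TTTCTTTTCCTGA and CTCAGGTTTTGCTTTT, which hold the U-rich runs, and the A-rich AAAAAGCAAAA, which ends the long Neat1 and lies 292 bases before the annotated end of Malat1.
Neat1 long form: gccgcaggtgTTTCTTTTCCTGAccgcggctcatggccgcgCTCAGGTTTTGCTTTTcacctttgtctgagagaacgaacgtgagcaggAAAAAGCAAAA
Malat1 A-rich tract: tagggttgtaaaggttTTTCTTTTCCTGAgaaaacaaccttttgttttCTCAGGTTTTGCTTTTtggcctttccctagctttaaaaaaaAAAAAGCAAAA

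The stretches were read from these 2 transcripts. Of 55450 genes with an annotated transcript, Neat1 and Malat1 were the 2 that held all 3 in this order within 120 bases of the sense strand. The last 60 bases of the long Neat1 transcript hold no AATAAA, which is present there in 27.1% of the 141767 annotated transcripts and in 41.1% of the protein-coding ones. The deposited counts are per gene and do not separate the short from the long form of Neat1. The counts therefore cover whichever ends were captured by poly(A) selection, and the number of paraspeckles was not measured.

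The libraries held between 21192179 and 28871459 estimated counts. Slc16a3, the targeted gene, was lower in the knockout at 20% oxygen (79.9 ± 11.1 against 210 ± 23.0 CPM, mean ± SD, n = 4, where CPM is the count scaled to a common library size) and at 2% oxygen (365 ± 5.83 against 812 ± 23.4), with no overlap between libraries. All 10 myeloid progenitor markers were present, and their summed level was 3650 to 4058 CPM in the libraries at 20% oxygen and 6480 to 7116 CPM at 2% oxygen. They did not move as a set. With low oxygen in control cells 4 of the 10 were called higher and 6 lower (edgeR), beside 38.7% and 39.6% of all genes. Ctsg fell from 1283 to 1032 CPM and Csf3r from 31.5 to 16.95 CPM there. Elane (neutrophil elastase) went from 693 to 3794 CPM and Cd34 from 152 to 359 CPM with low oxygen in control cells, and Mpo (myeloperoxidase) from 139 to 309 CPM with the knockout at 20% oxygen (1.16 ± 0.075, edgeR, adjusted p = 5.42e-09). The mitochondrial share of counts was 0.605% to 0.984% at 20% oxygen and 0.241% to 0.413% at 2% oxygen. The part of these shifts in the results was not tested. Of the markers of other cells, 8 of 9 lymphoid and 7 of 8 stromal ones were below 1 CPM on average, with Cd3e, Cd4, Ncr1, Col1a2, Dcn and Lum at 0. The exceptions were Ighm, an immunoglobulin heavy chain, at 33.8 and 34.8 CPM in control and MCT4-KO cells at 20% oxygen and 22.7 and 19.7 CPM at 2% oxygen, and Pdgfrb at 0.957 to 1.79 CPM. Among the 8 endothelial and epithelial markers Cdh5 and Kdr were at 0, while Pecam1, which leukocytes also carry, stood at 182, 184, 291 and 262 CPM in the same order of groups and Cdh1 at 0.241 to 2.08 CPM. The 7 erythroid markers summed to at most 2.499 CPM in any library. Oxygen moved most of the transcriptome, so a call on oxygen is common. Scaling by library size in place of TMM lowered the median oxygen effect over all genes by 0.21 in control and by 0.18 in MCT4-KO cells on the log2 scale, and changed the split of higher and lower calls from 5332 and 5458 to 3874 and 7121 in control cells and from 5189 and 5331 to 3797 and 6942 in MCT4-KO cells. For the average over genotypes the split went from 5656 and 5906 to 4170 and 7492, and for the knockout at 2% oxygen from 2671 and 2624 to 3437 and 2007. These are bulk libraries, so fewer cells of a kind and less RNA per cell cannot be told apart.

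In control cells at 20% oxygen Neat1 stood at 27.6, 28.4, 37.8 and 29.9 CPM in the 4 libraries. In MCT4-KO cells at the same oxygen it stood at 17.1, 17.5, 20.3 and 23.2 CPM. Every knockout library was below every control library, with a mean of 19.5 ± 2.82 against 30.9 ± 4.67 CPM. Such separation of 4 from 4 libraries was seen for 14.6% of all tested genes in this comparison, and for 37% with the knockout at 2% oxygen, 70.2% with low oxygen in control and 72.4% in MCT4-KO cells. Since Neat1 was chosen for this pattern, nothing is read from its separation. At 2% oxygen the order was the other way round. Control libraries held 20.96, 22.1, 23.8 and 26.8 CPM of Neat1, and knockout libraries held 30.8, 28.3, 31.5 and 33.0 CPM. Again the groups did not overlap, with means of 23.4 ± 2.52 in control and 30.9 ± 1.98 in MCT4-KO cells.

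On the log2 scale the knockout effect on Neat1 was −0.65 ± 0.10 (SE) at 20% oxygen, a 0.635-fold level, and 0.40 ± 0.10 at 2% oxygen, a 1.32-fold level. The difference between these effects was 1.06 ± 0.14. Because this reversal is what singled out Neat1, these values are given without a test. Read along the oxygen axis, the same 16 values gave −0.40 ± 0.10 for 2% against 20% oxygen in control cells and 0.66 ± 0.10 in MCT4-KO cells. Under library-size scaling these became −0.60 and 0.48. In order of mean level, control at 20% and MCT4-KO at 2% oxygen were level at the top (30.9 CPM each), and control at 2% and MCT4-KO at 20% oxygen had overlapping ranges at the bottom.

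The one contrast of Neat1 that is independent of the reversal is the oxygen effect averaged over both genotypes. It was 0.13 ± 0.071 (edgeR quasi-likelihood test, adjusted p = 0.0958) and did not pass the threshold of 0.05, in a comparison where 83.9% of the 13774 tested genes did. Without control at 20% oxygen replicate 3 (0.18, adjusted p = 0.0100) or without MCT4-KO at 20% oxygen replicate 4 (0.18, adjusted p = 0.0229) edgeR called it higher at low oxygen, and under library-size scaling its sign turned (−0.062, adjusted p = 0.421). Control at 20% oxygen replicate 3 held the highest Neat1 and Malat1 levels of all libraries, and the highest mitochondrial share of counts, 0.984% against 0.605% to 0.794% in the rest of its group. Its part in the result beyond the value without it was not tested. Without this library the knockout effect on Neat1 at 20% oxygen was −0.55 and the difference between the knockout effects 0.95.

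**Figure D1:**
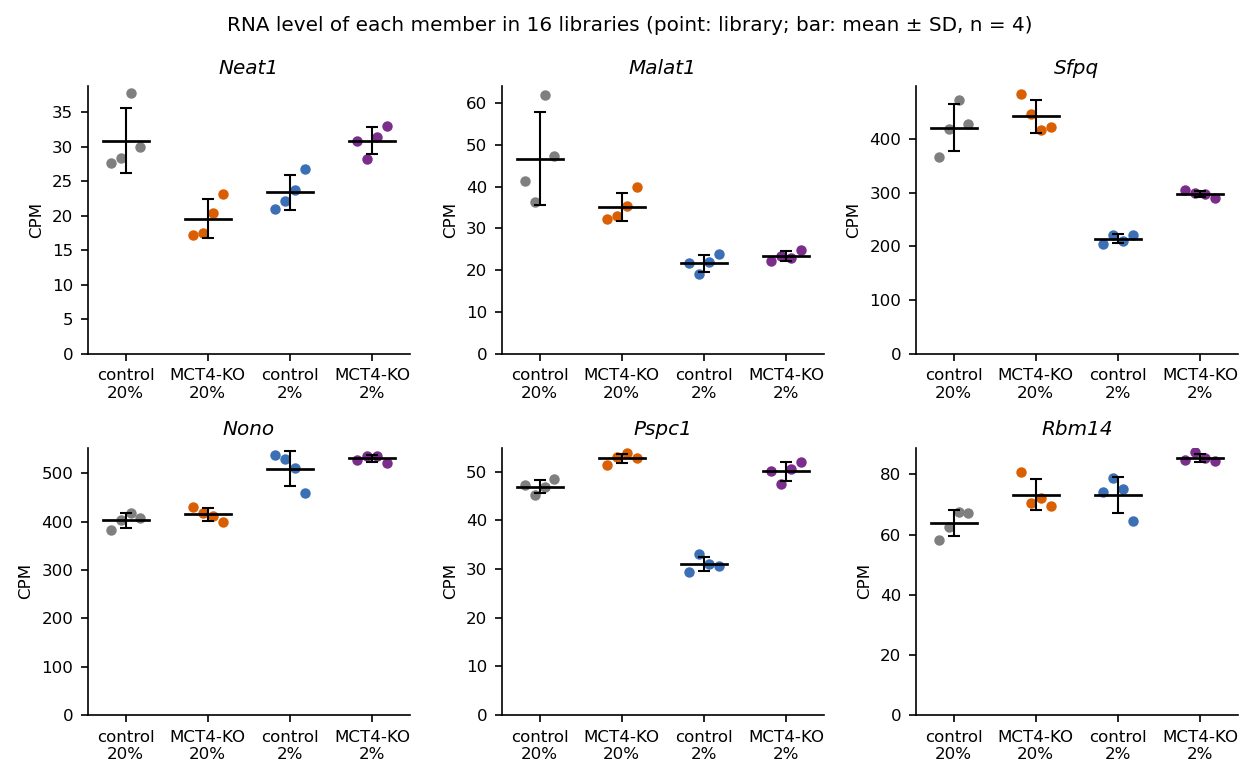
Level of each of the 6 genes in CPM (y axis from 0) in the 16 libraries, by group (x axis); points are libraries, horizontal bars means and whiskers SD (n = 4). Neat1 is lower in MCT4-KO than in control cells at 20% oxygen and higher at 2% oxygen, Malat1 and Sfpq are lower at 2% oxygen in both genotypes, and Nono is higher.

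Along the oxygen axis Malat1 was lower at 2% oxygen in both genotypes. Neat1 was lower there in control cells only, and higher in MCT4-KO cells. In control cells it went from 41.3, 36.3, 62.0 and 47.5 CPM at 20% oxygen to 21.7, 18.99, 21.9 and 23.9 CPM at 2% oxygen. MCT4-KO cells held 32.3, 33.1, 35.3 and 40.0 CPM at 20% oxygen and 22.1, 23.4, 23.0 and 24.8 CPM at 2% oxygen. All libraries at low oxygen were below all libraries at high oxygen, in either genotype. Malat1 fell by 1.11 ± 0.12 (log2) in control cells (edgeR, adjusted p = 3.76e-08) and by 0.59 ± 0.12 in MCT4-KO cells (adjusted p = 0.000151). Malat1 ends without a poly(A) tail, so these values cover only what poly(A) selection captured. Whether the captured part changed was not tested.

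With the knockout at 20% oxygen Malat1 fell by 0.41 ± 0.11 (edgeR, adjusted p = 0.0247), although the ranges overlapped, since control replicate 2 (36.3 CPM) lay below MCT4-KO replicate 4 (40.0 CPM). The fall was no longer called without control at 20% oxygen replicate 3 (−0.25, adjusted p = 0.0804), nor without MCT4-KO at 20% oxygen replicate 1, 2 or 3 (adjusted p from 0.0569 to 0.0774), and it was also lost in a fit to these 8 libraries alone (adjusted p = 0.0729). At 2% oxygen the knockout effect was 0.11 ± 0.13 (adjusted p = 0.524). The difference between the knockout effects was 0.52 ± 0.17 (edgeR, adjusted p = 0.0326). That call was lost when MCT4-KO at 20% oxygen replicate 1, 2 or 3, control at 2% oxygen replicate 2, or MCT4-KO at 2% oxygen replicate 2, 3 or 4 was left out (adjusted p from 0.0505 to 0.0697).

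Within a library the ratio of Neat1 to Malat1 counts does not depend on scaling. It covers only what poly(A) selection captured of either RNA. It averaged 0.672 ± 0.0769 in control and 0.554 ± 0.0279 in MCT4-KO cells at 20% oxygen. At 2% oxygen it averaged 1.08 ± 0.0851 in control and 1.32 ± 0.0816 in MCT4-KO cells. Neat1 counts passed Malat1 counts in 7 of 8 low-oxygen libraries and in 0 of 8 at 20% oxygen. The exception was control at 2% oxygen replicate 1, at 0.966. With the length of the long form used for Neat1, Malat1 stood higher per kilobase of exon. The values were 3.35 against 1.49 CPM per kilobase in MCT4-KO cells at 2% oxygen. The annotated short form of Neat1 is 3004 bases long, and a shorter length would raise the Neat1 value. Which RNA was the more abundant per kilobase therefore cannot be told from these counts. Malat1 overlaps Gm37376, an unclassified transcript on the opposite strand (453 bp shared, 29.3 to 119 counts), and counting by strand is not given in the sources used here.

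**Figure D2:**
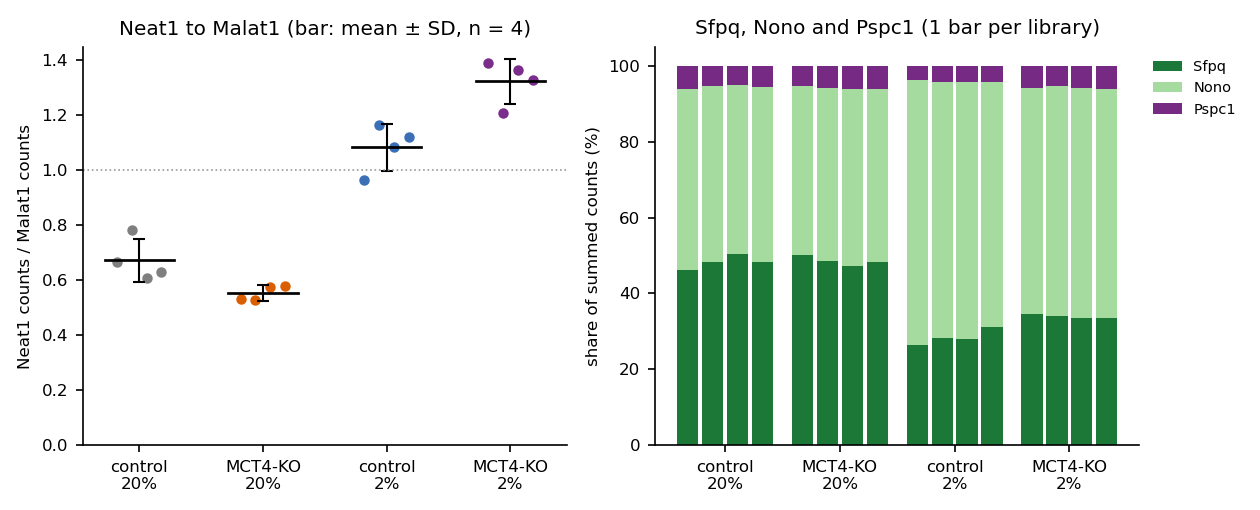
Left, the ratio of Neat1 to Malat1 counts (y axis) in each library by group, with mean and SD (n = 4). Right, the shares of Sfpq, Nono and Pspc1 in their summed counts (%, y axis), with 1 bar per library. The ratio is below 1 in every library at 20% oxygen and above 1 in 7 of 8 at 2% oxygen, and the share of Sfpq is 46.1% to 50.4% at 20% oxygen and 26.5% to 34.5% at 2% oxygen.

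Among the transcripts of the DBHS proteins, which coat Neat1, low oxygen lowered Sfpq and raised Nono, its usual partner. Protein levels were not measured. Sfpq, also a splicing and DNA repair factor (chr4:127021324-127037013), stood at 366, 419, 473 and 428 CPM in control and at 485, 446, 418 and 422 CPM in MCT4-KO cells at 20% oxygen. At 2% oxygen it stood at 204, 221, 209 and 221 CPM in control and at 305, 300, 297 and 290 CPM in MCT4-KO cells. The genotypes overlapped at 20% oxygen and were apart at 2% oxygen. The fall with low oxygen was 0.98 ± 0.059 (log2) in control cells (edgeR, adjusted p = 3.68e-12) and 0.57 ± 0.058 in MCT4-KO cells (adjusted p = 1.80e-08).

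The knockout effect on Sfpq was 0.071 ± 0.058 at 20% oxygen (edgeR, adjusted p = 0.511) and 0.48 ± 0.059 at 2% oxygen (adjusted p = 3.67e-06). The knockout thus raised Sfpq 1.39-fold where oxygen was low. The difference between these effects was itself past the threshold, at 0.41 ± 0.083 (adjusted p = 0.00141).

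Pspc1, the third DBHS protein (chr14:56720710-56778316), was the member with the strongest knockout call. At 20% oxygen it stood at 47.3, 45.2, 46.8 and 48.5 CPM in control and at 51.4, 53.0, 53.8 and 52.7 CPM in MCT4-KO cells. At 2% oxygen it stood at 29.4, 33.0, 31.1 and 30.6 CPM in control and at 50.2, 47.4, 50.6 and 52.1 CPM in MCT4-KO cells. The control group at 2% oxygen was the low one, and the other 3 group means lay between 46.9 and 52.7 CPM.

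Pspc1 rose with the knockout at both oxygen levels, by 0.17 ± 0.038 at 20% oxygen (edgeR, adjusted p = 0.00706) and by 0.69 ± 0.041 at 2% oxygen (adjusted p = 4.36e-10), and the effects differed by 0.52 ± 0.056 (adjusted p = 5.38e-06). Low oxygen lowered Pspc1 by 0.60 ± 0.041 in control cells (adjusted p = 2.70e-11). In MCT4-KO cells the change was −0.075 ± 0.038 (edgeR, adjusted p = 0.0784), which passed the threshold under library-size scaling (−0.25, adjusted p = 7.55e-06) and without MCT4-KO at 2% oxygen replicate 4 (−0.094, adjusted p = 0.0457).

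Nono (chrX:101429318-101448591) stood at 382, 404, 418 and 408 CPM in control and at 430, 418, 412 and 400 CPM in MCT4-KO cells at 20% oxygen. At 2% oxygen it stood at 538, 530, 511 and 458 CPM in control and at 528, 537, 537 and 521 CPM in MCT4-KO cells. The genotypes overlapped at each oxygen level, and all low-oxygen libraries were above all others. Nono rose by 0.34 ± 0.042 in control cells (edgeR, adjusted p = 3.43e-07) and by 0.35 ± 0.042 in MCT4-KO cells (adjusted p = 1.89e-07). Under library-size scaling these rises were smaller, 0.13 (adjusted p = 0.00861) and 0.18 (adjusted p = 0.00105). The knockout effects, 0.043 ± 0.042 and 0.059 ± 0.042, were not called (adjusted p = 0.603 and 0.290).

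The make-up of the DBHS transcripts changed with oxygen. Sfpq made up 48.3% ± 1.79 of the summed Sfpq, Nono and Pspc1 counts in control and 48.6% ± 1.19 in MCT4-KO cells at 20% oxygen, with Nono at 46.3% and 45.6%. At 2% oxygen the share of Sfpq was 28.4% ± 1.97 in control and 33.9% ± 0.447 in MCT4-KO cells, and Nono held 67.5% and 60.4%. Pspc1 was the smallest part throughout, from 4.12% in control cells at 2% oxygen to 5.81% in MCT4-KO cells at 20% oxygen. The share of Sfpq fell by 19.9 percentage points with low oxygen in control and changed by −14.7 points in MCT4-KO cells, and was 5.48 points higher in the knockout at 2% oxygen. Each of these 3 differences reached an exact two-sided permutation p = 0.0286, the smallest that 70 splits of 4 against 4 libraries allow (Benjamini-Hochberg over 4 comparisons, 0.0381). With any 1 of the 4 libraries of MCT4-KO at 2% oxygen left out, the knockout difference at 2% oxygen (exact permutation p = 0.0571, adjusted 0.0762) and the low-oxygen difference in MCT4-KO cells (p = 0.0286, adjusted 0.0571) no longer passed the threshold. The differences themselves stayed at 5.27 to 5.59 and at −14.9 to −14.6 points. Only 35 splits remain in these runs, and the unadjusted p of the low-oxygen difference did not change. These losses therefore do not show a smaller difference. At 20% oxygen the share differed by 0.311 points between the genotypes (exact permutation p = 0.80).

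Rbm14, which joins Neat1 strands into a paraspeckle (chr19:4800569-4811634), was modestly higher in the knockout. It stood at 58.2, 62.4, 67.5 and 67.3 CPM in control and at 80.8, 70.7, 72.2 and 69.4 CPM in MCT4-KO cells at 20% oxygen. At 2% oxygen it stood at 74.0, 78.8, 75.2 and 64.5 CPM in control and at 84.7, 87.5, 85.6 and 84.4 CPM in MCT4-KO cells. The genotypes did not overlap at either level.

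Rbm14 rose with the knockout by 0.23 ± 0.058 at 2% oxygen (edgeR, adjusted p = 0.00415). The rise at 20% oxygen, 0.20 ± 0.058 (adjusted p = 0.0367), was lost when control at 20% oxygen replicate 1 or 2, or MCT4-KO at 20% oxygen replicate 1, 2 or 3, was left out (adjusted p from 0.0518 to 0.128). Low oxygen raised Rbm14 by 0.20 ± 0.059 in control (edgeR, adjusted p = 0.00475) and by 0.23 ± 0.057 in MCT4-KO cells (adjusted p = 0.00139), but under library-size scaling these values were −0.0078 and 0.048 and neither was called. Rbm14 shares 727 bp with the readthrough gene Gm21992, whose level was 20.1 CPM in control at 20% and 9.70 CPM at 2% oxygen. With the counts of Gm21992 added to those of Rbm14 the oxygen effects were −0.020 and 0.035 and no longer called, while the knockout effects stayed called (0.16 and 0.21). How the reads of the shared stretch were divided was not tested.

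Over the 5 tested members, 2 rose (Pspc1, Rbm14) and 1 fell (Malat1) with the knockout at 20% oxygen, where 9.76% of all tested genes were called (4.96% higher, 4.8% lower). At 2% oxygen 3 rose (Sfpq, Pspc1, Rbm14) and 0 fell (edgeR, and also 0 at an unadjusted p under 0.05, by DESeq2 and by limma-voom), against 38.4% called among all genes (19.4% higher, 19.1% lower). The knockout effect was more positive at 2% than at 20% oxygen for 3 of 5 (Malat1, Sfpq, Pspc1), against 22.9% of genes called (11.6% higher, 11.3% lower). With low oxygen 2 rose and 3 fell in control cells (78.3% of all genes called, 38.7% higher and 39.6% lower), and 2 rose and 2 fell in MCT4-KO cells (76.4% called, 37.7% higher and 38.7% lower). Averaged over genotypes 2 rose (Nono, Rbm14) and 3 fell (Malat1, Sfpq, Pspc1) of 6 tested, beside 41.1% of all genes higher and 42.9% lower. The oxygen counts are near what all genes gave. The 2 knockout comparisons and the 2 oxygen comparisons draw on the same 4 groups, so they are not independent of each other.

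**Figure D3:**
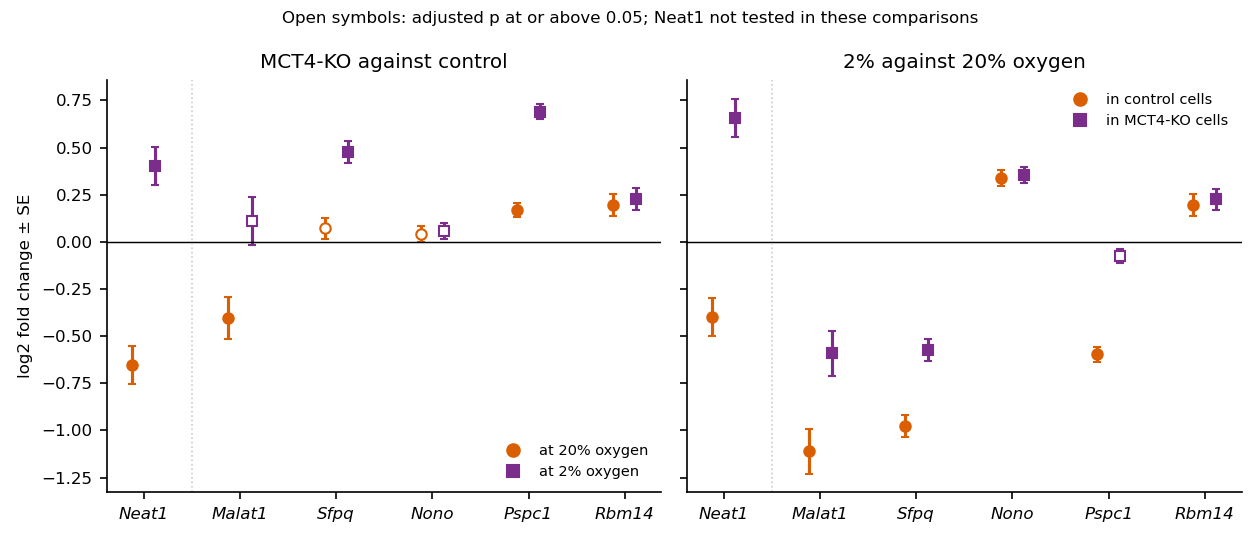
Log2 fold change with SE (y axis) of each gene (x axis) for the knockout at 20% and at 2% oxygen (left) and for 2% against 20% oxygen in each genotype (right). Open symbols did not pass an adjusted p of 0.05 and Neat1 was not tested here. Knockout effects at 2% oxygen (squares, left) lie above those at 20% oxygen for Malat1, Sfpq and Pspc1, for which the difference was called. It was within its SE and not called for Nono (0.016 ± 0.060) and Rbm14 (0.029 ± 0.082). Neat1 was chosen for this difference, which was not tested for it.

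The 5 other proteins without which paraspeckles do not form were examined next. For this and the following lists, the shares of all tested genes called were 9.76% with the knockout at 20% oxygen and 38.4% at 2% oxygen. They were 22.9% for the difference between the knockout effects, 78.3% for low oxygen in control and 76.4% in MCT4-KO cells. With the knockout at 20% oxygen 0 of 5 were called by edgeR, DESeq2 or limma-voom, and 0 had an unadjusted p under 0.05, with values from −0.053 (Hnrnpk) to 0.051 (Hnrnph3). At 2% oxygen 4 of 5 rose, with a median of 0.18 beside −0.004 over all genes. Dazap1, an hnRNP-like splicing regulator, rose by 0.18 ± 0.041, Hnrnph3 by 0.18 ± 0.044 and Smarca4, the ATPase of the SWI/SNF remodeller, by 0.17 ± 0.058. Hnrnpk, which binds C-rich stretches of Neat1 and favours its long form, stood at 0.086 ± 0.038 (adjusted p = 0.0773). The knockout effect differed with oxygen for 2 of 5 (40%), each more positive at 2% oxygen, beside 22.9% of all genes. Dazap1 was among them (0.22 ± 0.057, edgeR, adjusted p = 0.00797). Low oxygen lowered Hnrnph3 by 0.50 in control cells. Smarca4 rose by 0.21 there, but by 0.0091 and uncalled under library-size scaling.

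Of the 33 other proteins reported in paraspeckles, 30 passed the filter on low counts. With the knockout 2 rose and 1 fell at 20% oxygen, and 13 rose and 8 fell at 2% oxygen. These were 10% and 70% of the list, beside 9.76% and 38.4% of all genes, so the count at 20% oxygen is near that share. Taf15, an RNA-binding protein, rose by 0.49 ± 0.044 at 2% oxygen (edgeR, adjusted p = 1.06e-07), and Tardbp (TDP-43), which binds Neat1 and influences which form is made, rose by 0.39 ± 0.046 (adjusted p = 1.83e-06). Both effects differed from those at 20% oxygen, by 0.41 ± 0.061 for Taf15 and 0.41 ± 0.065 for Tardbp. Akap8l, a nuclear matrix protein, fell at both levels, by 0.19 ± 0.040 at 20% and by 0.39 ± 0.045 at 2% oxygen. Without control at 20% oxygen replicate 3 the counts at 20% oxygen were 0 higher and 1 lower. Low oxygen raised 16 and lowered 12 in control cells. Under library-size scaling those counts were 8 and 14, so no direction is given for the list. Hnrnph1 (−0.82), Taf15 (−0.92) and Srsf10 (−0.70) had the smallest adjusted p-values among those that fell.

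Whether Neat1 is made short or long rests on cleavage at the first polyadenylation site. Of 19 cleavage and polyadenylation factors 0 rose and 4 fell with the knockout at 20% oxygen, among them Pabpn1 (the nuclear poly(A)-binding protein, −0.16 ± 0.033), Cpsf2 (−0.12 ± 0.032) and Cpsf3, the cleaving subunit (−0.13 ± 0.038). That count was 1 without control at 20% oxygen replicate 3 and 2 under library-size scaling. At 2% oxygen 10 rose and 0 fell (edgeR, with 1 lower at an unadjusted p under 0.05 and 0 by DESeq2 or limma-voom), with a median of 0.13. The largest of those named by adjusted p was Pcf11, which couples cleavage to the release of the polymerase, at 0.26 ± 0.055 (edgeR, adjusted p = 0.00102). Low oxygen lowered 13 and raised 3 in control cells and lowered 10 and raised 5 in MCT4-KO cells, beside 39.6% of all genes lower in control and 38.7% in MCT4-KO cells. Under library-size scaling the counts were 16 lower and 1 higher in control and 14 lower and 2 higher in MCT4-KO cells. Pcf11 fell by 1.12 ± 0.053 in control cells, from 92.9 to 42.7 CPM, and Papola, the poly(A) polymerase, by 0.80 ± 0.036.

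RNase P cuts the 3′ ends of the long Neat1 and of Malat1, and RNase Z (Elac2) trims the small RNA left over. With the knockout at 20% oxygen 0 of 12 were called by edgeR, DESeq2 or limma-voom and 1 had an unadjusted p under 0.05, while 7 rose and 0 fell at 2% oxygen (median 0.19). Elac2 rose by 0.46 ± 0.039 (edgeR, adjusted p = 5.39e-08), Pop1, the largest protein of RNase P, by 0.45 ± 0.062 (adjusted p = 1.10e-05), and Rpp40 by 0.55 ± 0.090 (adjusted p = 7.93e-05). The knockout effect differed with oxygen for 4 of 12, all upward, where 22.9% of all genes were called (11.6% upward). Low oxygen lowered 9 and raised 2 in control and lowered 8 and raised 2 in MCT4-KO cells (9 and 0, and 9 and 1, under library-size scaling). Rpp38 went from 11.5 to 4.02 CPM in control cells (−1.51 ± 0.071).

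Factors of nuclear RNA decay, which remove unstable nuclear transcripts, gave 6 higher and 2 lower of 19 tested with the knockout at 2% oxygen, a share (42.1%) near that of all genes, and 8 higher and 0 lower under library-size scaling. Dis3, a nuclease of the exosome, rose there by 0.59 ± 0.068 (edgeR, adjusted p = 1.55e-06) and fell with low oxygen by 1.51 ± 0.065 in control and by 0.91 ± 0.061 in MCT4-KO cells. Proteins of the nuclear speckle, where Malat1 resides, gave 12 higher and 0 lower of 17 with the knockout at 2% oxygen (edgeR, with 1 lower at an unadjusted p under 0.05, 1 by DESeq2 and 0 by limma-voom), with a median of 0.17. The splicing factors Srsf1 (0.51 ± 0.039) and Srsf2 (0.50 ± 0.045) had the smallest adjusted p-values. In control cells at low oxygen 14 of 17 fell and 2 rose (16 and 1 under library-size scaling), Srsf1 by 1.01 ± 0.039 and the kinase Prpf4b by 0.99 ± 0.048. Without control at 2% oxygen replicate 4 the knockout counts for the speckle list were 11 higher and 2 lower.

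Of 10 other nuclear long noncoding RNAs, 6 passed the filter on low counts. With low oxygen 5 of these fell and 1 rose in either genotype, where 78.3% of all genes were called in control cells (39.6% lower) and 76.4% in MCT4-KO cells (38.7% lower). Ftx, at the X-inactivation centre, fell by 1.85 ± 0.19 in control cells (edgeR, adjusted p = 1.77e-08), Pvt1, next to Myc, by 1.28 ± 0.10 (adjusted p = 3.23e-10) and Tug1 by 0.54 ± 0.044 (adjusted p = 4.05e-10). With the knockout at 20% oxygen 0 of 6 were called by edgeR, DESeq2 or limma-voom, 1 had an unadjusted p under 0.05, and at 2% oxygen 2 rose, Kcnq1ot1 by 0.44 ± 0.16 (adjusted p = 0.0382) and Pvt1 by 0.29 ± 0.11 (adjusted p = 0.0454). Leaving out 1 library at a time gave 0 to 2 rises at 2% oxygen.

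**Figure D4:**
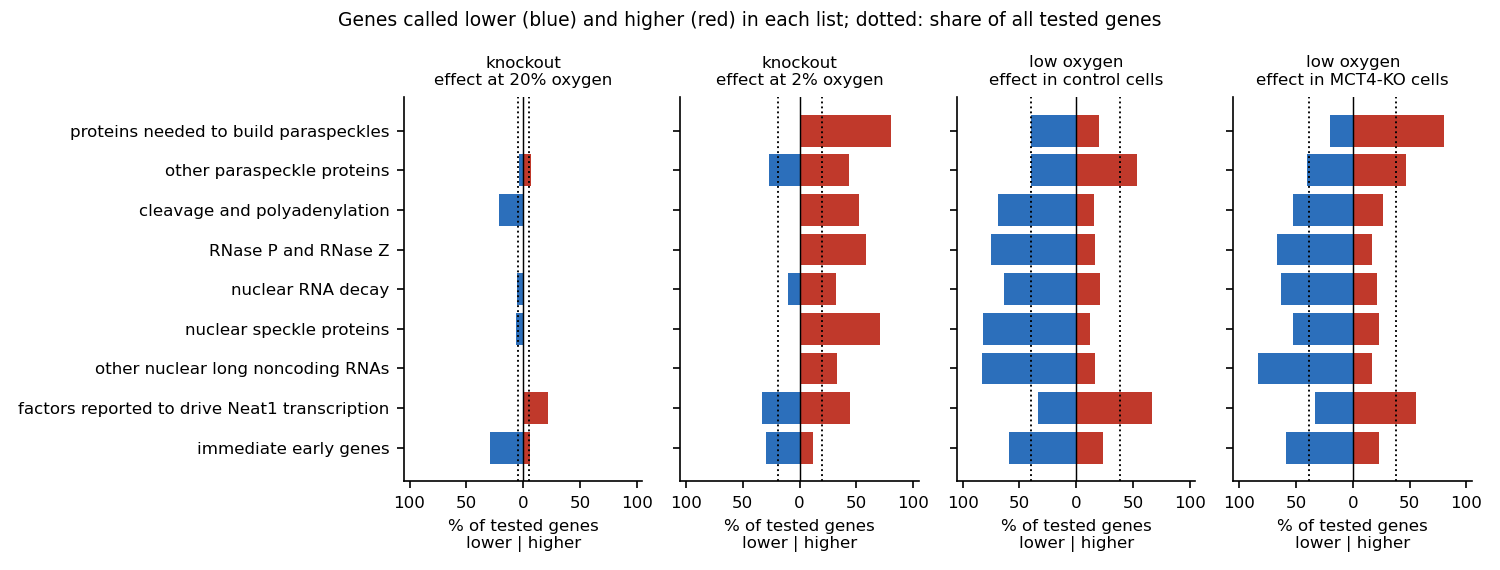
Share of the tested genes of each list (y axis) called lower (blue, to the left) or higher (red, to the right) in 4 comparisons (x axis, %); dotted lines give the shares over all 13774 tested genes. With the knockout at 2% oxygen the lists for paraspeckle-building proteins, cleavage and polyadenylation, RNase P and nuclear speckles have 4 of 5, 10 of 19, 7 of 12 and 12 of 17 genes higher and 0 lower.

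Among 9 factors reported in other cells to drive Neat1 transcription, 2 rose with the knockout at 20% oxygen, Brca1 (0.31 ± 0.063) and Runx1 (0.21 ± 0.057), a count that was 4 without control at 2% oxygen replicate 4 and 1 to 4 over all libraries left out in turn. At 2% oxygen 4 rose and 3 fell. The called share of the list was 22.2% at 20% and 77.8% at 2% oxygen, beside 9.76% and 38.4% of all genes. Epas1, which encodes HIF-2alpha, went from 0.867 to 6.58 CPM with low oxygen in control cells (2.91 ± 0.15, edgeR, adjusted p = 1.59e-13) and from 0.828 to 4.71 CPM in MCT4-KO cells (2.49 ± 0.15). Hsf1, the heat shock factor, fell by 0.94 ± 0.044 and 0.85 ± 0.043, and Trp53 by 0.66 ± 0.039 and 0.51 ± 0.039. Epas1 fell with the knockout at 2% oxygen by 0.48 ± 0.11 (edgeR, adjusted p = 0.00234), while Hif1a rose (0.21 ± 0.045, adjusted p = 0.000879). The knockout effect differed with oxygen for 3 of 9 (33.3%), where 22.9% of all genes were called. It was more positive at 2% oxygen for Hif1a (0.21 ± 0.063, adjusted p = 0.0202) and more negative for Atf2 (−0.28 ± 0.057, adjusted p = 0.00173) and Runx1 (−0.22 ± 0.080, adjusted p = 0.0482), the last not called under library-size scaling (−0.20, adjusted p = 0.0970). These are transcript levels and do not measure the proteins, which oxygen controls for both HIF alpha subunits (of Hif1a and Epas1).

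RefSeq promoters (GRCm38.p6, 250 bases before to 50 after the start) were found for 5 of the 6 genes, Neat1 being without an entry. ACGTG, a core bound by hypoxia-inducible factors, occurred once, on either strand, in the Malat1 promoter and in none of the other 4, and is present in 19.6% of 32817 promoters of the same length. The related GCGTG occurred once at Sfpq and at 2 places in Pspc1, and is present in 32.4% of promoters. TTCNNGAA, a motif bound by heat shock factors, was in none of the 5 (8.51% of all promoters). These are letter matches, not bound sites.

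Immediate early genes, which respond quickly to handling and signalling, were counted because they can move with short-lived nuclear RNAs. Of 17 tested, 1 rose and 5 fell with the knockout at 20% oxygen, among them Klf2 (−0.35 ± 0.074), Atf3 (−0.39 ± 0.083) and Jund (−0.16 ± 0.038), and the counts were 0 and 3 without control at 20% oxygen replicate 3. At 2% oxygen 2 rose and 5 fell, 41.2% of the list beside 38.4% of all genes. The effect differed with oxygen for 4 (23.5%, beside 22.9% of all genes), all upward. Both shares are near those of all genes. Egr1 was among the 4 (1.43 ± 0.28), but its level was low at 2% oxygen, with group means of 0.70 (control) and 1.48 CPM (MCT4-KO). The summed level of the 20 listed genes was 722 to 752 CPM in control and 653 to 697 CPM in MCT4-KO libraries at 20% oxygen, and 462 to 515 and 457 to 478 CPM at 2% oxygen. Their part in the Neat1 values was not tested.

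The genes around Neat1 and Malat1 on chromosome 19 did not follow Neat1 as a block. Of 22 annotated genes within 100000 bp, 13 passed the filter. With the knockout at 20% oxygen 2 rose (Slc25a45, Pola2) and 1 fell (Cdc42ep2), and at 2% oxygen 1 rose (Sssca1) and 7 fell. Over all genes 9.76% were called at 20% oxygen, and 38.4% at 2% oxygen (19.4% higher, 19.1% lower). Frmd8, whose end lies 4224 bp from Neat1, stood at 0.019 ± 0.035 at 20% oxygen (edgeR, adjusted p = 0.799) and fell by 0.21 ± 0.035 at 2% oxygen (adjusted p = 8.11e-05), where Neat1 was higher. Slc25a45, a mitochondrial carrier, had knockout effects opposite in sign to those of Neat1 at both levels, 0.22 ± 0.064 and −0.29 ± 0.070. Sssca1 had the signs of Neat1, −0.15 ± 0.056 (not called) and 0.17 ± 0.055 (edgeR, adjusted p = 0.0201). The knockout effect was more positive at 2% oxygen for 2 neighbours and more negative for 4, beside 11.6% and 11.3% of all genes. The 2 were Sssca1 (0.32 ± 0.079, edgeR, adjusted p = 0.00610) and Gm37376 (0.92 ± 0.31, adjusted p = 0.0402). Gm37376 overlaps Malat1 on the opposite strand (453 bp shared), so its counts may not be separate from those of Malat1. With low oxygen 7 neighbours rose and 3 fell in control cells, with Cdc42ep2 (2.97 ± 0.12) and Ltbp3 (2.25 ± 0.14) at the top. Calls were about as common over all genes there (78.3%, with 38.7% higher and 39.6% lower).

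**Figure D5:**
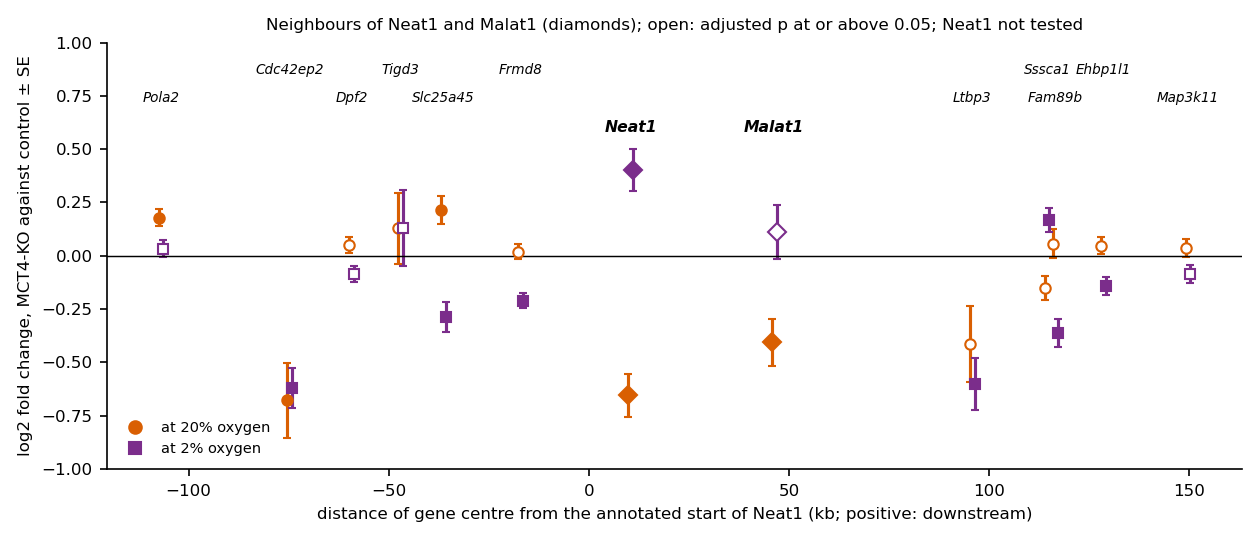
Log2 fold change with SE for MCT4-KO against control (y axis) at 20% (circles) and 2% oxygen (squares) for 11 coding genes within 100 kb of Neat1 or Malat1, by distance of the gene's centre from the start of Neat1 (x axis, kb); diamonds are Neat1 and Malat1, and open symbols did not pass an adjusted p of 0.05. Neat1, which was not tested, is low at 20% and high at 2% oxygen. Of the 13 tested neighbours (2 of the 13 not drawn) 7 fell with the knockout at 2% oxygen, beside 19.1% of all genes.

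Which genes had profiles most like these RNAs was read from the root mean square (RMS) difference between log2 CPM profiles over the 16 libraries, each centred on its mean, among 9067 genes. For Neat1, whose own profile has an RMS of 0.318, the nearest were Ccdc80, a secreted matrix protein (difference 0.185), Sh3tc1 (0.224), Ogt, the enzyme that adds O-GlcNAc to proteins (0.225), Nabp1, which binds single-stranded DNA (0.228), and Mrps10, of the mitochondrial ribosome (0.232). Ccdc80 went from 129 to 89.8 CPM with the knockout at 20% oxygen and from 114 to 125 CPM at 2% oxygen. Ogt went from 53.2 to 42.1 and from 56.1 to 67.9 CPM. For Malat1, with an RMS of 0.472, the nearest were Leng8 (0.166), Arglu1, a splicing modulator (0.169), Fam193b (0.177), Mlh3, of mismatch repair (0.178), and Prpf39, of the U1 particle (0.179), all of which were lower at 2% oxygen in both genotypes. Neat1 and Malat1 differed from each other by 0.515, more than either differed from a flat line. These likenesses were picked from these libraries and have no test.

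Per kilobase of exon the 6 genes kept wide gaps in control cells at 20% oxygen. Nono (92.1 ± 3.46 CPM per kilobase) and Sfpq (88.8 ± 9.19) did not differ beyond their spread at the top, followed by Rbm14 (16.3 ± 1.14), Pspc1 (8.19 ± 0.232), Malat1 (6.70 ± 1.60) and Neat1 (1.49 ± 0.225). Malat1 and Pspc1 had overlapping ranges there. The Neat1 value rests on the length of the long form, so its place in this order is not settled. At 2% oxygen the control levels were 116 for Nono and 45.1 for Sfpq, so that the 2 were apart.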

How the data were processed

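Per the labels' protocols, total RNA was prepared with RNeasy Plus Mini, poly(A) RNA was selected and NEBNext Ultra II libraries were made. The deposited table gives estimated counts per gene, which need not be whole (10.1% of values are not). HISAT2, RSEM and mm10 are named in the submitters' processing notes. Counts were rounded and matched to GENCODE vM21 (53706 of 53801 identifiers; the other 95 hold 0.0103% of counts). edgeR 4.0.16 in R 4.3.3 fitted all 16 libraries together (filterByExpr, 13774 genes, TMM, quasi-likelihood F-test, Benjamini-Hochberg, called at adjusted p under 0.05). SE is the log2 fold change divided by the root of F. CPM uses TMM-adjusted library sizes. The fit was tested on simulated counts. limma 3.58.1 and DESeq2 1.42.0 gave alternatives. The members and gene lists were chosen with earlier results of these data known, and the search for 3′ end motifs and the addition of overlapping genes' counts were chosen after seeing the files. Named genes were the 6 members, Slc16a3, the 5 building proteins, for each other list up to 3 called genes with the smallest adjusted p per comparison, tested neighbours within 100000 bp, and the 5 nearest profiles (at least 3 log2 CPM on average). The marker lists were myeloid, lymphoid, erythroid, stromal, and endothelial with epithelial. At these depths, 394 to 861 counts stand behind each Neat1 value and 440 to 1395 behind each Malat1 value. Some genes of these lists are not reported here by name.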

Additional observations from a re-analysis of the deposited data

Results flagged for a closer look

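Among the 5 genes tested, the knockout effect differed between the oxygen levels for 3, where 22.9% of all genes were called. For Malat1 the effects differed by 0.52 (edgeR, adjusted p = 0.0326), a call that was lost when any 1 of 7 libraries was left out (adjusted p from 0.0505 to 0.0697). For Sfpq they differed by 0.41 (adjusted p = 0.00141) and for Pspc1 by 0.52 (adjusted p = 5.38e-06), each more positive at 2% oxygen. For Neat1, which was chosen for this reversal and is not counted among them, every knockout library was below every control library at 20% oxygen and above at 2% oxygen, a difference of 1.06 on the log2 scale that was not tested. The highest or lowest of 4 values stood apart from the rest by Dixon's 95% criterion in 0 of 32 groups checked, covering the 6 genes, the Neat1 to Malat1 ratio and the share of Sfpq.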

How the results depend on the processing

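The counts of genes called stayed within 1.5 times of the values given under each alternative run, and leaving out 1 library at a time gave 899 to 1708 (knockout at 20% oxygen), 4586 to 5392 (knockout at 2%), 10544 to 10816 (low oxygen in control cells), 10175 to 10659 (in MCT4-KO cells), 2648 to 3356 (knockout by oxygen) and 11394 to 11546 (oxygen average). Library-size scaling moved Neat1 with low oxygen to −0.60 in control and 0.48 in MCT4-KO cells, took Rbm14 to −0.0078 in control, 0.048 in MCT4-KO cells and 0.020 averaged, all uncalled, and brought Pspc1 in MCT4-KO cells past the threshold (−0.25). With overlapping genes added, an alternative chosen after seeing the data, Rbm14 stood at −0.020, 0.035 and 0.0078 for the same 3 comparisons. That alternative adds to Rbm14 the counts of a gene that was lower at 2% oxygen. What lay behind these shifts was not tested. In a fit to the compared groups alone the knockout effect on Malat1 at 20% oxygen (−0.41) missed the threshold. The averaged oxygen effect on Neat1 passed it with no count filter (0.14, adjusted p = 0.0167).

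Same-numbered libraries showed little shared deviation (r from −0.064 to 0.115). This cannot tell whether they were handled together, which the labels do not say, and the main fit used no pairing. A fit with the replicate number as a block called 1059 genes for the knockout at 20% oxygen and 4984 at 2%, 10706 and 10418 for low oxygen in control and MCT4-KO cells, 2781 for the knockout by oxygen and 11473 for the oxygen average. In that blocked fit the averaged oxygen effect on Neat1 was called (0.13, adjusted p = 0.0245) and the knockout effect on Rbm14 at 20% oxygen was not (0.20, adjusted p = 0.0612).

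Leaving out 1 library at a time gave a Neat1 average oxygen effect of 0.092 to 0.18, a Malat1 knockout effect at 20% oxygen of −0.51 to −0.25 and difference between knockout effects of 0.36 to 0.62, a Pspc1 oxygen effect in MCT4-KO cells of −0.094 to −0.051, and an Rbm14 knockout effect at 20% oxygen of 0.15 to 0.22. The share of Sfpq differed by 4.84 to 6.40 points for the knockout at 2% oxygen and by −20.8 to −19.1 and −15.1 to −14.2 points for low oxygen in control and MCT4-KO cells, and the first and the last of these missed the threshold without any 1 library of MCT4-KO at 2% oxygen. DESeq2 size factors, the DESeq2 Wald test, limma-voom and a stricter filter changed no call on the 6 genes.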
